A study of Homo sapiens with 4 samples.

Results

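THY1 and 9 other genes of surface proteins that are used to mark mesenchymal cells were followed in HGC-27 gastric carcinoma cells that carried a control shRNA or a USP47 shRNA. The genes THY1, NT5E, ENG, CD44, MCAM, ALCAM, NGFR, NCAM1, VCAM1 and L1CAM were taken by symbol from the 63568 gene identifiers of the count files, and all 10 were found and passed the filter on low counts, among 21932 genes that did so. The 4 RNA-Seq libraries come from HGC-27, an established cell line, infected with lentivirus that carried either a scrambled hairpin (Control shRNA, 2 libraries) or a hairpin against the deubiquitinase gene USP47 (USP47 shRNA, 2 libraries). Cells of both groups had gone through lentiviral infection, and the study's methods describe puromycin selection of the infected cells. The libraries are biological duplicates by the submitters' account, while the methods state triplicate samples and 2 libraries per group were analysed here, and whether the 2 knockdown libraries carry the same hairpin is not stated. The series' design text also mentions a DMSO vehicle for control cells, which the labels of these libraries do not. The RNA-Seq was done to find the pathways that loss of USP47 affects. THY1 is among the genes that the study itself followed up, so its fall is not independent of how the gene came to be chosen. The same holds for PDGFRB and FN1, which are named below.

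These proteins are how a mesenchymal cell is recognized from outside. THY1 (CD90), NT5E (CD73) and ENG (CD105) form the classical positive panel for mesenchymal stromal cells, and CD44, MCAM (CD146), ALCAM (CD166) and VCAM1 (CD106) are commonly added to it. THY1, MCAM, ALCAM, NCAM1, VCAM1 and L1CAM belong to the immunoglobulin superfamily of adhesion molecules, THY1 and NT5E are held in the membrane by a glycosylphosphatidylinositol (GPI) anchor, and ENG, NGFR and CD44 act as receptors or co-receptors for TGF-beta family ligands, neurotrophins and hyaluronan.

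The panel did not move as a unit. THY1, MCAM, NCAM1, VCAM1 and NGFR were lower with USP47 shRNA, NT5E was higher, and ENG, CD44, ALCAM and L1CAM did not pass the test. The drop was deepest in THY1, to 22.9% of the control mean, and the classical panel of THY1, NT5E and ENG held a gene that fell, a gene that rose and a gene that was not called. Thus 5 of the 10 genes were called lower, beside 9.56% of all genes tested, and 1 was called higher, beside 6.52% of all genes tested. The test was the quasi-likelihood test of edgeR, run over all 21932 genes, with a call at a Benjamini-Hochberg adjusted p under 0.05. The knockdown libraries were lower than each control library in 6 of the 10 genes, against 31.7% of all genes tested, and higher than each in 1, against 29.3%. Which of the genes were called changed with the library left out, as did the number of calls over all genes. VCAM1 and NT5E were no longer called when either control library was left out. CD44 (lower) and ALCAM (higher) came to be called when USP47 shRNA replicate 2 was left out. The median log2 fold change (USP47 shRNA against control shRNA) of the 10 genes was -0.48, and that of all genes was -0.0083. Since the RNA was taken from a whole culture, fewer cells that express a gene and less RNA per cell cannot be told apart.

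**Figure D1:**
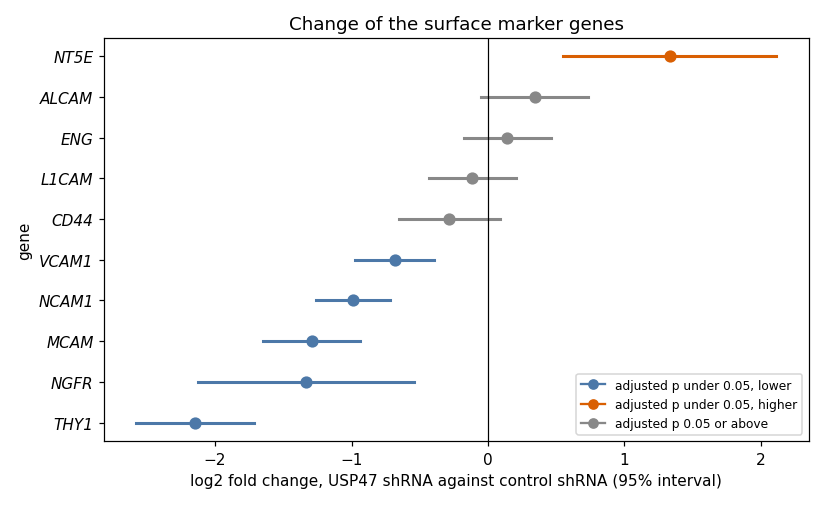
Log2 fold change of each gene (x axis) with its 95% interval, in 2 libraries per group, ordered from the lowest to the highest. The intervals of THY1, NGFR, MCAM, NCAM1 and VCAM1 lie below 0 and that of NT5E lies above 0, while those of CD44, L1CAM, ENG and ALCAM cross it.

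Total counts on genes lay between 15649899 and 20140273 per library. USP47, the targeted gene, measured 80.0 and 66.1 CPM (counts relative to library size after TMM normalization) with control shRNA and 36.0 and 21.5 CPM with USP47 shRNA, which left 49.3% and 29.5% of the control mean in the knockdown libraries. HGC-27 is labelled as gastric carcinoma, but reads on the epithelial keratin genes KRT18 and KRT19 were nearly absent. KRT7, KRT8 and KRT20 are part of the sum below and are not given singly. KRT18 and KRT19 had at most 1 count in any library, CDH1 had 13 and 12 counts in control cells and 28 and 8 in knockdown cells, and of 15 epithelial and gastric markers 7 passed the filter, with a summed level of 10.7 to 17.9 TPM (a level per gene length and library). EPCAM was the 1 of these called, lower at 12 and 11 counts against 3 and 3 (log2 fold change -1.84, adjusted p = 0.0418). Its call was lost when libraries were scaled by total count alone, with no filter and by the DESeq2 Wald test. This list had 0 lower calls without control replicate 1, control replicate 2 or USP47 shRNA replicate 1, and 2 without USP47 shRNA replicate 2. In contrast, the 15 mesenchymal state markers summed to 850 to 932 TPM with control shRNA and to 866 to 905 TPM with USP47 shRNA, with COL3A1 the highest. Of these markers 14 were tested, with 4 lower (28.6%, against 9.56% of all genes) and 2 higher (14.3%, against 6.52%). FN1 (log2 fold change -1.34), COL1A2 (-1.23), ACTA2 (-0.96) and COL1A1 (-0.75) fell, and TAGLN (0.83) and SNAI2 (0.50) rose. These 4 lower and 2 higher calls were 2 and 0 without control replicate 1 or control replicate 2, 5 and 6 without USP47 shRNA replicate 1, and 5 and 2 without USP47 shRNA replicate 2. VIM, the intermediate filament gene of mesenchymal cells, was not called (log2 fold change -0.14, adjusted p = 0.623). Of the 10 blood cell genes whose absence is part of the stromal cell definition, 3 passed the filter and none was called. CD34 had 1 count in all 4 libraries together, and PTPRC (CD45) had 8 to 12 counts per library. The 7 endothelial markers measured summed to 5.20 and 4.12 TPM in control cells and to 3.01 and 2.15 TPM in knockdown cells, with CDH5 at 2 counts or fewer in each library, and the 6 glial and Schwann cell markers to 2.98 and 2.89 TPM and to 1.76 and 1.45 TPM, with S100B at 1 count or fewer. ESAM, CLDN5 (27 and 29 counts against 17 and 5) and ERBB3 of these lists were called lower. ESAM is also counted among the immunoglobulin superfamily relatives below. The 2 endothelial calls were 0 without control replicate 1 or control replicate 2 and by the DESeq2 Wald test, and 1 without USP47 shRNA replicate 2. ERBB3 was the 1 call of its list, whose count stayed at 1 in these fits. The number of calls over all genes changed with the library left out, so counts from such fits are not to be set against these shares. The part of other cell types in the results was not tested.

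THY1 encodes a small GPI-anchored immunoglobulin domain protein that binds integrins and syndecan 4 on neighbouring cells. It measured 34.2 and 38.7 CPM in the control libraries and 6.59 and 10.1 CPM in the USP47 shRNA libraries, from 580, 759, 137 and 145 counts. All of the knockdown values lay far below the lowest control value. The mean went from 36.4 ± 3.18 CPM to 8.35 ± 2.49 CPM (SD over the 2 libraries of a group, as for every mean given here). edgeR put the change at -2.14 on the log2 scale (SE, the standard error, 0.20, 95% interval -2.58 to -1.71, adjusted p = 0.000471), which places it among the lowest 0.433% of all genes by fold change. THY1 kept its call under every other test, scaling and filter that was tried, with fold changes between -2.46 and -1.78 on the log2 scale. The gene lies on chromosome 11 of GRCh37 (119286186 to 119295695, minus strand). An antisense RNA, USP2-AS1, shares 232 exon bases with it and had 61 and 67 counts in control cells and 70 and 53 in knockdown cells, a level that did not follow THY1. THY1-AS1, which shares 632 exon bases, had 0 counts in every library.

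NT5E, the ecto-enzyme that makes adenosine from AMP outside the cell, carries the same kind of anchor as THY1 and changed in the opposite direction. The gene lies on chromosome 6 of GRCh37 (86159302 to 86205509). It was barely expressed, with 11 and 10 counts under control shRNA and 27 and 24 under USP47 shRNA. These correspond to 0.649 and 0.510 CPM and to 1.30 and 1.67 CPM, so that the groups did not overlap. edgeR put the change at 1.33 on the log2 scale (SE 0.35, 95% interval 0.55 to 2.12, adjusted p = 0.0298). This call rests on few reads and was lost when libraries were scaled by total count alone (adjusted p = 0.0509), without control replicate 1 (adjusted p = 0.081) and without control replicate 2 (adjusted p = 0.208). At a mean of 0.199 TPM in control cells NT5E stood at the 1.82 percentile of all genes tested, a low level for a gene of the classical panel.

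**Figure D2:**
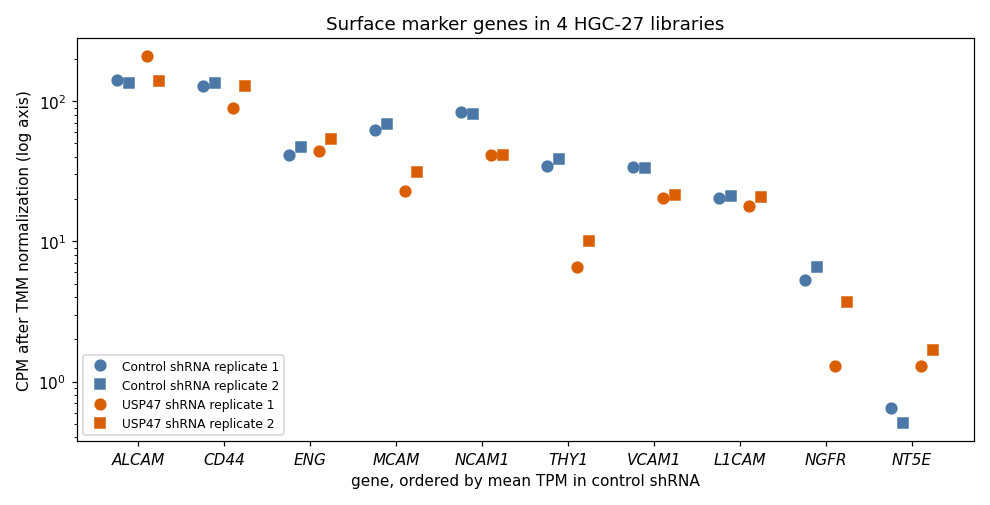
CPM after TMM normalization of each gene (y axis, log scale) in the 4 libraries, with circles for replicate 1 and squares for replicate 2. THY1, MCAM, NCAM1, VCAM1 and NGFR sit lower in both USP47 shRNA libraries, NT5E sits higher in both, and ALCAM, ENG and L1CAM overlap between the groups.

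The immunoglobulin superfamily members split into a group that fell and a group that did not. MCAM, an adhesion molecule of pericytes and of melanoma cells, measured 62.4 and 69.0 CPM with control shRNA and 22.8 and 31.0 CPM with USP47 shRNA. The knockdown libraries stood at 34.8% and 47.2% of the control mean, both clear of the controls. edgeR put the change at -1.29 on the log2 scale (SE 0.16, adjusted p = 0.00116). MCAM (chromosome 11 of GRCh37, 119179239 to 119192231) shares 509 exon bases with CBL on the other strand, which had 2071 to 3041 counts per library, and the part of CBL reads in its count is not known, as no source states whether strand was used.

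NCAM1 (CD56), the neural cell adhesion molecule (chromosome 11 of GRCh37, 112831997 to 113149158), had nearly the same CPM in both knockdown libraries. It measured 84.0 and 80.7 CPM in control cells and 41.4 and 41.5 CPM in knockdown cells, so that each knockdown library held 50.3% or 50.4% of the control mean, while by TPM the knockdown libraries were further apart (4.71 and 3.53 TPM). edgeR put the change at -0.99 on the log2 scale (SE 0.12, adjusted p = 0.00116). VCAM1, the ligand of the integrin subunit ITGA4 that cytokines induce through NF-kB (chromosome 1, 101185298 to 101204601), went from 33.7 and 33.4 CPM to 20.3 and 21.5 CPM. It stood at 60.5% and 64.2% of control, and edgeR put the change at -0.68 on the log2 scale (SE 0.13, adjusted p = 0.00823). The call of VCAM1 was lost without control replicate 1 (adjusted p = 0.103) or control replicate 2 (adjusted p = 0.0722), at nearly the same fold change.

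ALCAM and L1CAM did not pass the test. ALCAM, the ligand of CD6 that also binds itself between cells (chromosome 3, 105085753 to 105295744), measured 142 and 134 CPM in control cells and 209 and 140 CPM in knockdown cells. Only USP47 shRNA replicate 1 stood above the controls, and the log2 fold change was 0.34 (95% interval -0.05 to 0.74, adjusted p = 0.214 in edgeR's fit). Without USP47 shRNA replicate 2 it was 0.61, and without replicate 1 it was 0.03, so 1 library decides this value. L1CAM, a neural adhesion molecule that binds itself and integrins (chromosome X, 153126969 to 153151627), was the flattest of the genes here that had a negative value, with 20.5 and 21.2 CPM against 17.7 and 20.8 CPM. Its log2 fold change was -0.11 (95% interval -0.43 to 0.21, adjusted p = 0.625 in edgeR's fit), an interval that leaves out falls of the size seen in NCAM1.

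RefSeq promoter sequences (GRCh38.p14, 250 bases before to 50 after the start of a gene) were at hand for VCAM1, ALCAM, NT5E, ENG, CD44, MCAM and L1CAM, 7 of the 10 genes, the last with 2 starts. THY1, NGFR and NCAM1 had no entry. The 250 bases before the start are shown for MCAM and VCAM1, which fell, and for ALCAM, which shares a motif with MCAM and was not called. Capitals mark the motifs CAGGTG, GGGNTTTCC and TATAAA on either strand. CAGGTG is the E-box to which the repressor SNAI1 binds, a protein that the study examines together with USP47. Its own RNA had 199 and 309 counts in control cells and 266 and 263 in knockdown cells. SNAI1 RNA was not called (log2 fold change 0.17, adjusted p = 0.612 in edgeR's fit). In HGC-27 the paper reports less Snai1 protein after USP47 knockdown at an unchanged mRNA level. Protein was not measured in these libraries. The MCAM stretch lies at chr11:119317131-119317380 (minus strand), the VCAM1 stretch at chr1:100719492-100719741 (plus strand) and the ALCAM stretch at chr3:105366659-105366908 (plus strand).
MCAM promoter: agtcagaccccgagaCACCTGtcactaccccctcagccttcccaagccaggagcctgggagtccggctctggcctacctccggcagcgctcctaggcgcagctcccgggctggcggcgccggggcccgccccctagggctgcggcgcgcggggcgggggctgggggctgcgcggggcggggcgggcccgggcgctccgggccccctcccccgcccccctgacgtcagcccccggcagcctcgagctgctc
VCAM1 promoter: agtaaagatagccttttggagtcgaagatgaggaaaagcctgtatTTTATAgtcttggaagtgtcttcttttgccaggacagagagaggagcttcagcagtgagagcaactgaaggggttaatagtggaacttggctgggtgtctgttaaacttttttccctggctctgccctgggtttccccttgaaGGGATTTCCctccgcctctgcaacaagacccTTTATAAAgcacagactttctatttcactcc
ALCAM promoter: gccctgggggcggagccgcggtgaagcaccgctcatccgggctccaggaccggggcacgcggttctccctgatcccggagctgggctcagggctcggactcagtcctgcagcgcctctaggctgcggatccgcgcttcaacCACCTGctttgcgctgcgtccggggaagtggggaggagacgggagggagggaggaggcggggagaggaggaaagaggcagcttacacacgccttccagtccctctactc

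The E-box CAGGTG was found in 2 of the 7 genes, with its first base at -235 in MCAM and at -109 in ALCAM, counted from the start, and 20.6% of all 35116 promoters of this length hold it. Of these, MCAM was called lower and ALCAM was not called. The looser E-box CANNTG, which includes the former, was found in 5 of the 7 genes and in 68.7% of all promoters. The stretch of VCAM1 differed from the rest, with an NF-kB type motif GGGNTTTCC at -62 and TATAAA on either strand at -205, -31 and -29, the last of these overlapping each other. These motifs are held by 1.86% and 11.5% of all promoters and by no other of the 7 genes. GC content was 48.3% in the VCAM1 window and at least 61.7% in those of the other genes, highest in MCAM. A motif match is a description of these letters and not of binding.

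Among the receptors, NGFR fell while CD44 and ENG did not pass the test. NGFR, the p75 neurotrophin receptor, is also a marker of neural crest and of stromal progenitor cells. The gene lies on chromosome 17 of GRCh37 (47572655 to 47592370). It had 90 and 129 counts in control cells and 27 and 53 counts in knockdown cells, or 5.31 and 6.58 CPM against 1.30 and 3.69 CPM. Both knockdown libraries were below the controls but far from each other, at 21.9% and 62.2% of the control mean. edgeR put the change at -1.34 on the log2 scale (SE 0.36, adjusted p = 0.0308). It was -2.19 without USP47 shRNA replicate 2 and -0.68 without USP47 shRNA replicate 1. In such fits the spread rests on the control libraries alone, so a call there does not take in the gap between the knockdown libraries.

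CD44, the main hyaluronan receptor (chromosome 11, 35160429 to 35253949), measured 129 and 136 CPM with control shRNA and 89.6 and 128 CPM with USP47 shRNA. By CPM, replicate 2 of the knockdown lay just below the lower control while replicate 1 stood at 67.6% of the control mean. By TPM both knockdown libraries were lower, at 12.9 and 13.9 TPM against 18.7 and 17.3 TPM in the controls. The gap between the knockdown libraries thus depended on the scaling. The log2 fold change was -0.28 (95% interval -0.66 to 0.09, adjusted p = 0.271 in edgeR's fit). Without USP47 shRNA replicate 2 it was -0.56 (adjusted p = 3.56e-05) and without replicate 1 it was -0.04 (adjusted p = 0.839). The counts are per gene, so CD44 splice forms were not told apart. ENG, the co-receptor of TGF-beta and BMP ligands (chromosome 9, 130577292 to 130616937), had 41.4 and 47.3 CPM in control cells and 44.2 and 53.8 CPM in knockdown cells. The groups overlapped, with a log2 fold change of 0.14 (95% interval -0.18 to 0.46, adjusted p = 0.529 in edgeR's fit). ENG shares 313 exon bases with a long noncoding RNA on the other strand, which had 77 to 122 counts per library, and NGFR shares 202 with NGFR-AS1, which had 2 to 7.

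The 2 knockdown libraries differed in the depth of response, by an amount that depended on the gene and the scaling. By CPM, THY1, MCAM and NGFR were higher in USP47 shRNA replicate 2 than in replicate 1 (1.53-fold, 1.36-fold and 2.84-fold). By TPM the order was the same but the gaps were smaller. In replicates 1 and 2, NGFR had 0.454 and 0.966 TPM and THY1 had 1.61 and 1.85 TPM. MCAM was nearly equal, at 4.46 and 4.53 TPM. For NCAM1 and VCAM1 the order depended on the scaling, with ratios of 1.00 and 1.06 by CPM but 4.71 and 3.53 TPM for NCAM1 and 4.86 and 3.86 TPM for VCAM1 in replicates 1 and 2. USP47 itself was lower in replicate 2 on both scales. Replicate 2 was also the library with the fewest counts.

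Levels of different genes were compared by the deposited TPM. In control cells ALCAM was the highest (28.8 and 24.0 TPM), followed by CD44 (18.7 and 17.3 TPM), ENG (16.3 and 16.3 TPM) and MCAM (12.3 and 11.9 TPM). NCAM1 (9.58 and 8.11 TPM) and THY1 (8.41 and 8.38 TPM) came next and were the only neighbours in this order whose libraries overlapped. VCAM1 (8.11 and 7.09 TPM), L1CAM (4.00 and 3.65 TPM), NGFR (1.86 and 2.03 TPM) and NT5E (0.235 and 0.163 TPM) closed the order. In USP47 shRNA cells THY1 dropped from rank 6 to rank 8 (1.61 and 1.85 TPM), below VCAM1 and L1CAM, and ENG passed CD44.

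The 10 genes summed to 108 and 99.0 TPM in the control libraries and to 92.5 and 69.0 TPM in the knockdown libraries. THY1, MCAM, NCAM1, VCAM1 and NGFR made up 37.2% and 37.9% of that sum in control cells and 17.4% and 21.4% in knockdown cells. These shares follow from the calls above and are a description, with no test. ALCAM alone took 45.7% of the sum in USP47 shRNA replicate 1 and 30.7% in replicate 2, against 26.6% and 24.2% in the controls. Its own level was 42.3 and 21.2 TPM in these knockdown libraries, against 28.8 and 24.0 TPM in the controls. In replicate 2 its share was thus higher although its TPM lay below both controls, as the sum was lower. By CPM it lay between the controls, at 140 CPM against 142 and 134 CPM. The lower sum of replicate 2 depends in part on the scaling. ENG in this library was the highest of the 4 by CPM (53.8 CPM) and the lowest by TPM (15.7 TPM).

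**Figure D3:**
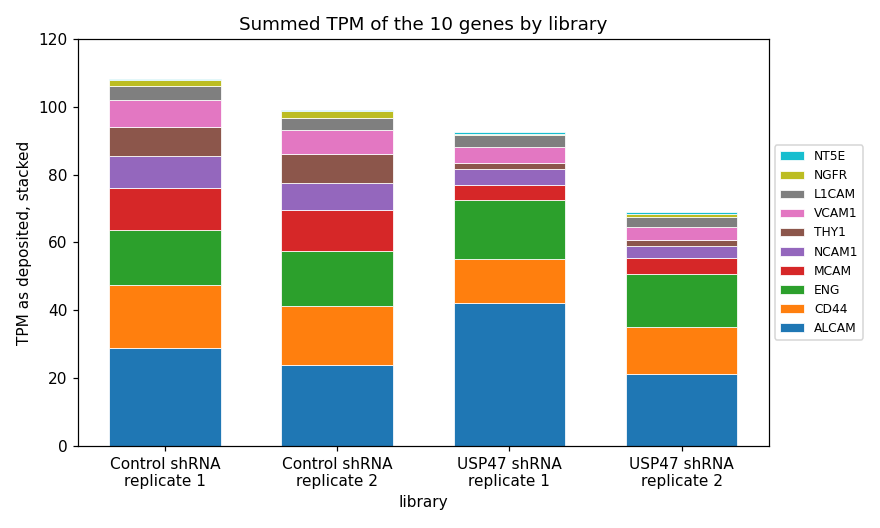
TPM of the 10 genes as deposited, stacked for each library. The summed height is 108 and 99.0 TPM in the control libraries and 92.5 and 69.0 TPM in the USP47 shRNA libraries, and the band of THY1 narrows from 8.41 and 8.38 TPM to 1.61 and 1.85 TPM.

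Of the 10 genes, 4 lie on chromosome 11 (THY1, MCAM, NCAM1 and CD44), and MCAM is a close neighbour of THY1, with 94.0 kb between the genes. Among the 5 tested genes on either side of THY1, 4 were called lower and 0 higher in edgeR's fit, beside 10.2% called lower and 8.14% called higher of the 1105 genes tested on this chromosome. MCAM, RNF26 (an endoplasmic reticulum ubiquitin ligase, log2 fold change -0.68, adjusted p = 0.00962), NECTIN1 (an adhesion molecule, -0.62, adjusted p = 0.0156) and TLCD5 (-0.74, adjusted p = 0.0209) fell. USP2 (log2 fold change 0.04) and USP2-AS1 (0.00), which spans THY1 on the other strand, had values near 0, and OAF, further away, had a value of 0.42 (adjusted p = 0.0527). No neighbour had as low a value as THY1.

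The genes most like THY1 were sought by the distance between log2 CPM values centred on each gene's own mean, over the 4 libraries, among 2971 genes with an adjusted p under 0.05 and an average log2 CPM of at least 1. The nearest were RASSF2, a Ras association domain gene (distance 0.186 on the log2 scale), PDGFRB, the PDGF receptor of pericytes and fibroblasts (0.188), SHC2, an adaptor of receptor tyrosine kinases (0.208), MSI1, a neural RNA-binding protein (0.210), and SLC16A14 (0.245). Their log2 fold changes lay between -2.34 in SLC16A14 and -2.06 in PDGFRB. Among the surface genes followed here MCAM came closest to THY1 (0.864), then NGFR (0.965) and NCAM1 (1.26), and NT5E was farthest (3.54). With 4 libraries in 2 groups such a distance mostly reflects the fold change.

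Other genes of the same families and pathways were read from the same fit as lists. The number of calls depends on the libraries kept: over all genes it was 3527, and it was 1233 without control replicate 1, 1416 without control replicate 2, 7272 without USP47 shRNA replicate 1 and 6516 without USP47 shRNA replicate 2. Counts for the lists are therefore given with those from the fits without 1 library. The share of all genes called in each direction, and the number of genes tested, also changed with each such fit. List counts from these fits are therefore not to be set against the 9.56% and 6.52% of the fit on all 4 libraries. The relatives in the immunoglobulin superfamily moved both ways. Of 26 tested genes 7 were lower (26.9%, against 9.56% of all genes) and 3 higher (11.5%, against 6.52%). Their median log2 fold change was -0.27. NCAM2, the closest relative of NCAM1, fell from 23.9 ± 1.84 to 9.95 ± 1.36 CPM (adjusted p = 0.00119 by edgeR), a log2 fold change of -1.26. EMB (embigin, -1.06) and CADM4 (-0.88) fell too. CADM1 (0.47), CNTN5 (0.74) and NPTN (0.49) rose. ICAM1, which like VCAM1 is a cytokine-induced ligand of leukocyte integrins, had a log2 fold change of -0.10 (adjusted p = 0.82). When libraries were scaled by total count alone, 7 of these relatives were lower and 1 was higher. Without control replicate 1 or 2 there were 3 lower and 0 higher, without USP47 shRNA replicate 1 there were 9 and 5, and without USP47 shRNA replicate 2 there were 10 and 4.

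Partners of the adhesion molecules showed 2 of 18 tested genes lower (11.1%, near the 9.56% of all genes) and 4 higher (22.2%, against 6.52% of all genes). ITGA4, the integrin subunit that binds VCAM1, rose from 84.5 ± 4.66 to 133 ± 3.91 CPM (adjusted p = 0.00849 by edgeR), a log2 fold change of 0.65, while VCAM1 itself fell. SDC4, the syndecan that THY1 engages, rose (log2 fold change 0.74, adjusted p = 0.0134), as did NRP1, a co-receptor of L1CAM (0.75, adjusted p = 0.00523), and LGALS3 (0.66, adjusted p = 0.0191). ITGB3, the partner of ITGAV in the THY1-binding integrin, had 15 and 9 counts in control cells and 1 and 2 in knockdown cells and did not pass the filter. ANK3, the ankyrin that anchors L1 family proteins to the cytoskeleton, fell (log2 fold change -0.99, adjusted p = 0.00216), as did GFRA1, a GDNF receptor that pairs with NCAM1 (-1.31, adjusted p = 0.00784). The 4 higher calls were lost without control replicate 1 and without control replicate 2, where 0 genes of the list were called higher. They were 8 without USP47 shRNA replicate 1 and 5 without USP47 shRNA replicate 2, and the lower calls were between 2 and 4 over these fits.

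Around CD44, 4 of 15 tested genes were lower (26.7%, against 9.56% of all genes) and 2 higher (13.3%, against 6.52%). The median log2 fold change of the list was -0.41. HAS2, the main hyaluronan synthase of mesenchymal cells, fell from 13.6 ± 1.21 to 4.89 ± 0.666 CPM (adjusted p = 0.000941 by edgeR). CEMIP, a hyaluronan-degrading protein (log2 fold change -0.86), and MSN, the moesin that links CD44 to actin (-0.50), fell as well. HAS3 did so narrowly (-0.59, adjusted p = 0.0497). ESRP2, an epithelial splicing factor that acts on CD44 transcripts, rose from 5.35 ± 0.434 to 11.3 ± 0.441 CPM (adjusted p = 0.0033 by edgeR), and its relative ESRP1 had 3 or 4 counts in each library. NF2 (merlin), which binds the CD44 tail, rose (0.48, adjusted p = 0.0433). Without control replicate 1 or control replicate 2 the list had 1 lower and 1 higher call, without USP47 shRNA replicate 1 it had 6 and 2, and without USP47 shRNA replicate 2 it had 5 and 3.

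The neurotrophin list had 7 of 16 tested genes lower (43.8%, against 9.56% of all genes) and 1 higher (6.25%, against 6.52% of all genes). Fallen genes included the ligands NTF3 (log2 fold change -1.32), NTF4 (-0.88) and BDNF (-0.75), the receptor NTRK2 (-0.85), the NGFR co-receptors SORT1 (-0.64) and LINGO1 (-0.62), and BEX3 (-1.09), an adaptor that binds the tail of NGFR. BEX3 went from 68.4 ± 3.64 to 32.2 ± 3.49 CPM (adjusted p = 0.00116 by edgeR). PRDM4, a zinc finger protein that binds NGFR, rose (0.45, adjusted p = 0.0473). Without control replicate 1 the lower calls were 3, and without control replicate 2 they were 2, with 0 higher in both. Without USP47 shRNA replicate 1 there were 6 lower and 3 higher, and without USP47 shRNA replicate 2 there were 7 and 1.

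The endoglin list was the reverse, with 0 of 21 tested genes lower (against 9.56% of all genes) and 6 higher (28.6%, against 6.52%). Its median log2 fold change was 0.08. The risen genes were the ligand TGFB3 (log2 fold change 0.67), the receptors ACVR2B (0.66) and TGFBR1 (0.42), the inhibitory SMAD7 (0.79), the target ID1 (0.44) and the ENG-binding adaptor GIPC1 (0.73). ACVRL1, the endothelial partner of ENG, had 4 counts or fewer in each library. When libraries were scaled by total count alone, 3 genes of this list were higher, and without control replicate 1 0 were and without control replicate 2 only 1 was. Without USP47 shRNA replicate 1 there were 2 lower and 6 higher, and without USP47 shRNA replicate 2 there were 1 and 9.

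Around NT5E, 2 of 15 tested genes of extracellular adenosine were lower (13.3%, against 9.56% of all genes) and 0 higher (against 6.52% of all genes). SLC29A4, a membrane transporter of monoamines and adenosine, fell from 39.9 ± 3.01 to 13.4 ± 2.30 CPM (adjusted p = 0.000502 by edgeR), and the adenosine receptor ADORA1 fell (log2 fold change -0.64, adjusted p = 0.0296). ENTPD1 (CD39), which supplies AMP to NT5E, had a log2 fold change of -0.02 (adjusted p = 0.928). Enzymes of the GPI anchor, on which both THY1 and NT5E depend, gave 2 lower and 3 higher calls of 29 tested, close to the share of all genes, and a median of 0.03. PIGV (-0.82) and PIGX (-0.64) fell, and PGAP3 (0.75), PIGS (0.58) and PIGH (0.56) rose. In the fits without 1 library the lower and higher calls ranged from 1 to 4 and from 0 to 2 in the adenosine list, and from 0 to 4 and from 0 to 7 in the anchor list.

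Of the proteases that shed these proteins, 1 of 17 tested genes was called lower (5.88%, against 9.56% of all genes) and 0 higher. ADAM19 fell from 49 and 61 counts to 7 and 7 counts (log2 fold change -2.89, SE 0.33, adjusted p = 0.00077), while ADAM10 (-0.19, adjusted p = 0.454), ADAM17 (0.29, adjusted p = 0.167) and MMP14 (-0.16, adjusted p = 0.593) did not pass the test. Without USP47 shRNA replicate 1 this list had 5 lower and 4 higher calls, and without USP47 shRNA replicate 2 it had 5 and 0. Further surface genes of mesenchymal cells gave 5 lower calls of 16 tested (31.3%, against 9.56% of all genes) and 0 higher (against 6.52%). PDGFRB (-2.06), CD9, a tetraspanin (-1.43), FAP, the fibroblast activation protein (-0.74), PDGFRA (-0.63) and B4GALNT1, an enzyme on the way to the ganglioside GD2 (-0.50), fell. CD248 (-0.26), LRP1 (0.03), CD63 (0.23) and ROR2 (0.42) did not pass the test, and CDH2 (N-cadherin) had 10 counts or fewer in each library. Without control replicate 1 or control replicate 2 there were 3 lower calls in this list, without USP47 shRNA replicate 1 there were 6 with 3 higher, and without USP47 shRNA replicate 2 there were 7 with 1 higher.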

How the data were processed

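The 4 RNA-Seq libraries, 2 of Control shRNA and 2 of USP47 shRNA, were grouped by the labels. Per the study's methods, the authors trimmed bases of low quality, mapped reads to hg19 with STAR 2.7.5c and used SAMtools 1.9 to take out duplicates and reads of low quality. featureCounts is listed in the submitters' processing notes, and its annotation and strand setting are not given in the sources used here. Without molecular identifiers, taking out duplicates lowers high counts and can compress fold changes. The library kits named by the labels and by the methods differ. The authors deposited raw counts per gene, and FPKM and TPM values derived from them. TPM was used for levels between genes and FPKM as an alternative to it.

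Counts were tested with edgeR 4.0.16 in R 4.3.3 (filterByExpr, TMM, robust quasi-likelihood fit, two-sided, Benjamini-Hochberg over 21932 genes). The SE was obtained from the log2 fold change and its F statistic. limma 3.58.1 and DESeq2 1.42.0 served alternatives. The steps were tested on simulated data. Of 63568 identifiers, 55665 matched a symbol. Positions come from GRCh37 with lifted GENCODE annotation. Of the counts, 7.11% to 9.72% per library were from 7SL RNA copies and 4.81% to 5.68% from mitochondrial genes, and these were kept. Control libraries differed by more than sampling noise (chi-square per degree of freedom 5.33), as did the knockdown libraries (18.6).

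The 10 genes, the lists and alternatives were chosen with earlier results of these data known. Genes named from a list are the up to 3 with the smallest p in each direction, and further list genes were named after their values were seen, for their part in the pathway. With 2 libraries per group the spread of a gene rests largely on genes of similar abundance. Intervals cover the spread between these libraries.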

Additional observations from a re-analysis of the deposited data

How the results depend on the processing

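The count of 5 genes lower and 1 higher was the same with DESeq2 size factors, with the legacy quasi-likelihood method, with no filter and with at least 10 counts in every library. With library size alone 5 were lower and 0 higher, since NT5E missed the threshold, and the DESeq2 Wald test gave 5 lower and 0 higher, with no adjusted p for NT5E. limma-trend on log2(TPM + 1) called 2 lower (THY1 and MCAM) and 0 higher, and 192 genes in all, against 3527. A test against an absolute log2 fold change of 1 called 1 lower (THY1) and 0 higher, and 71 genes in all. In those last settings the log2 fold change of USP47 was -1.24 (adjusted p = 0.113) and -1.34 (adjusted p = 0.908), so its call was lost. Over all genes the DESeq2 Wald test called 2284, and the share of higher calls was 31.5% with library size alone and 34.8% with no filter, in place of 40.5%.

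When 1 library at a time was left out, where the lone library of a group is assumed to vary like the others, genes called lower numbered 4 to 6 and those called higher 0 to 2. For USP47 the estimate ranged from -1.75 to -1.01. Without USP47 shRNA replicate 2, ENG turned to -0.001 (adjusted p = 0.996; 0.29 without USP47 shRNA replicate 1), and without USP47 shRNA replicate 1, L1CAM turned to 0.0098 (adjusted p = 0.967; -0.23 without USP47 shRNA replicate 2). All genes called numbered 1233 without control replicate 1, 1416 without control replicate 2, 7272 without USP47 shRNA replicate 1 and 6516 without USP47 shRNA replicate 2.

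With the replicate number as a block 6 genes were lower and 2 higher, as CD44 (log2 fold change -0.30, adjusted p = 0.0149) and ALCAM (0.31, adjusted p = 0.0131) joined, and 7419 genes were called in all. The sources do not tie a number to a batch or day, and the deviations of replicate 1 correlated at 0.213 between the groups. The block was therefore not used. ALCAM exceeded THY1 in control cells 3.14-fold by TPM and by FPKM alike. Depth limits NT5E most, and NGFR after it.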
